A study of Mus musculus with 2 samples.

Results

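The genes described here are 37 genes that macrophages or leukocytes in general express, measured in ureters of mouse embryos in which Fgfr2, a receptor for fibroblast growth factors, was deleted by Pax2-cre. They were chosen by name, from knowledge of these cells and not from a threshold on the measurements. Earlier results of these data were known when they were chosen. All 37 had a probe on the array. Of these, 33 were among the 20909 genes that passed the filter on dim probes, and each of the 33 was well above background in both groups on both arrays. A gene is represented by its brightest probe.

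Two-colour Agilent arrays compared RNA of Fgfr2cKO ureters with RNA of control ureters of NMRI embryos at E13.5, on 2 arrays. The Fgfr2cKO ureters carried Pax2-cre/+ together with Fgfr1(fl/?) and Fgfr2(fl/fl), and the control ureters carried Fgfr1(fl/?) and Fgfr2(fl/?) without the Cre, where the question mark stands for a wild-type or a floxed allele. Per the series' design text the mutant pool mixed ureters with and without the floxed Fgfr1 alleles, so effects of both receptors cannot be told apart. On array 1 both RNAs came from females and Cy5 labelled the mutant one, while on array 2 both came from males and Cy3 labelled it. Every ratio below is log2 Fgfr2cKO over control, and a mean ± SD is over the 2 arrays. Levels are normalised log2 intensities of a channel, which can be compared between the channels of 1 probe and not between genes. Nothing in the labels says how many embryos a pool held, so p-values do not measure a spread between embryos. They rest on these 2 arrays, with the variance of each gene drawn toward that of all genes. The number of arrays limits the precision.

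Several facts of the arrays bear on all the genes. The brighter of 2 Fgfr2 probes had ratios of 0.27 and 0.06 and was therefore not lower in the mutant channel, and the sources used here do not say whether it lies in the deleted part. Xist, transcribed from the inactive X of females, had a level of 8.39 in the mutant and of 9.996 in the control channel of the array labelled male, a ratio of -1.60, against 12.42 in both channels of the array labelled female. Ddx3y and Eif2s3y, genes of the Y chromosome, were brighter in both channels of the array labelled male. Ddx3y reached 11.88 (mutant) and 11.57 (control) there, against 8.15 and 8.44 on the other array. Eif2s3y reached 11.22 and 11.51, against 8.27 and 8.41 in the same order. The Y-linked levels thus matched the labels, and the source of the Xist signal on the array labelled male was not tested. Female and male below are the labels' words, and the part of the Xist difference in the results was not tested. All 10 marker genes of the ureteric epithelium and all 10 of the ureteric mesenchyme were measured, so markers of both ureteric tissues were present.

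Macrophages reach embryonic organs early, from the yolk sac and the fetal liver, and depend on the receptor Csf1r and on the transcription factor PU.1, which the gene Spi1 (older name Sfpi1) encodes. They clear dying cells and debris with C1q, Fc receptors, scavenger receptors and the Trem2 and Tyrobp receptor complex. Pax2-cre is driven by regulatory sequence of Pax2, a gene of the nephric duct and kidney lineages and not of blood cells. In bulk tissue a change in the number of cells of a type and a change in RNA per cell cannot be told apart.

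Macrophage genes were higher in the mutant ureters as a group, although no single one of them passed the test over all genes. Of the 33 measured genes, 28 were higher on both arrays and 0 were lower on both, where the shares over all genes were 22.1% and 21.4%. The median ratio was 0.46, with 0.44 on array 1 and 0.42 on array 2, against 0.0044 over all genes. Expressed as levels, both mutant channels stood above both control channels for 24 of the 33 genes, where this held for 12.0% of all genes. In limma 0 of the 33 passed an adjusted p of 0.05, where 0.0287% of all genes did, and 17 of the 33 had an unadjusted p under 0.05, where 4.04% of all genes did. The smallest adjusted p was 0.366, that of Trem2, and over the other 9 ways of processing the smallest was 0.239, that of C1qa. On array 1 alone 31 of the 33 were higher, and on array 2 alone 30. The median of all genes was -0.00051 on array 1 and 0.0056 on array 2, so about as many genes were higher as lower on each. Normalisation within each array centres the ratios near 0, so this balance was set by the processing. Beside these genes, neutrophil granule, erythroid and liver genes were also higher, with medians of 0.43, 0.78 and 0.68, and their part in the result was not tested.

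**Figure D1:**
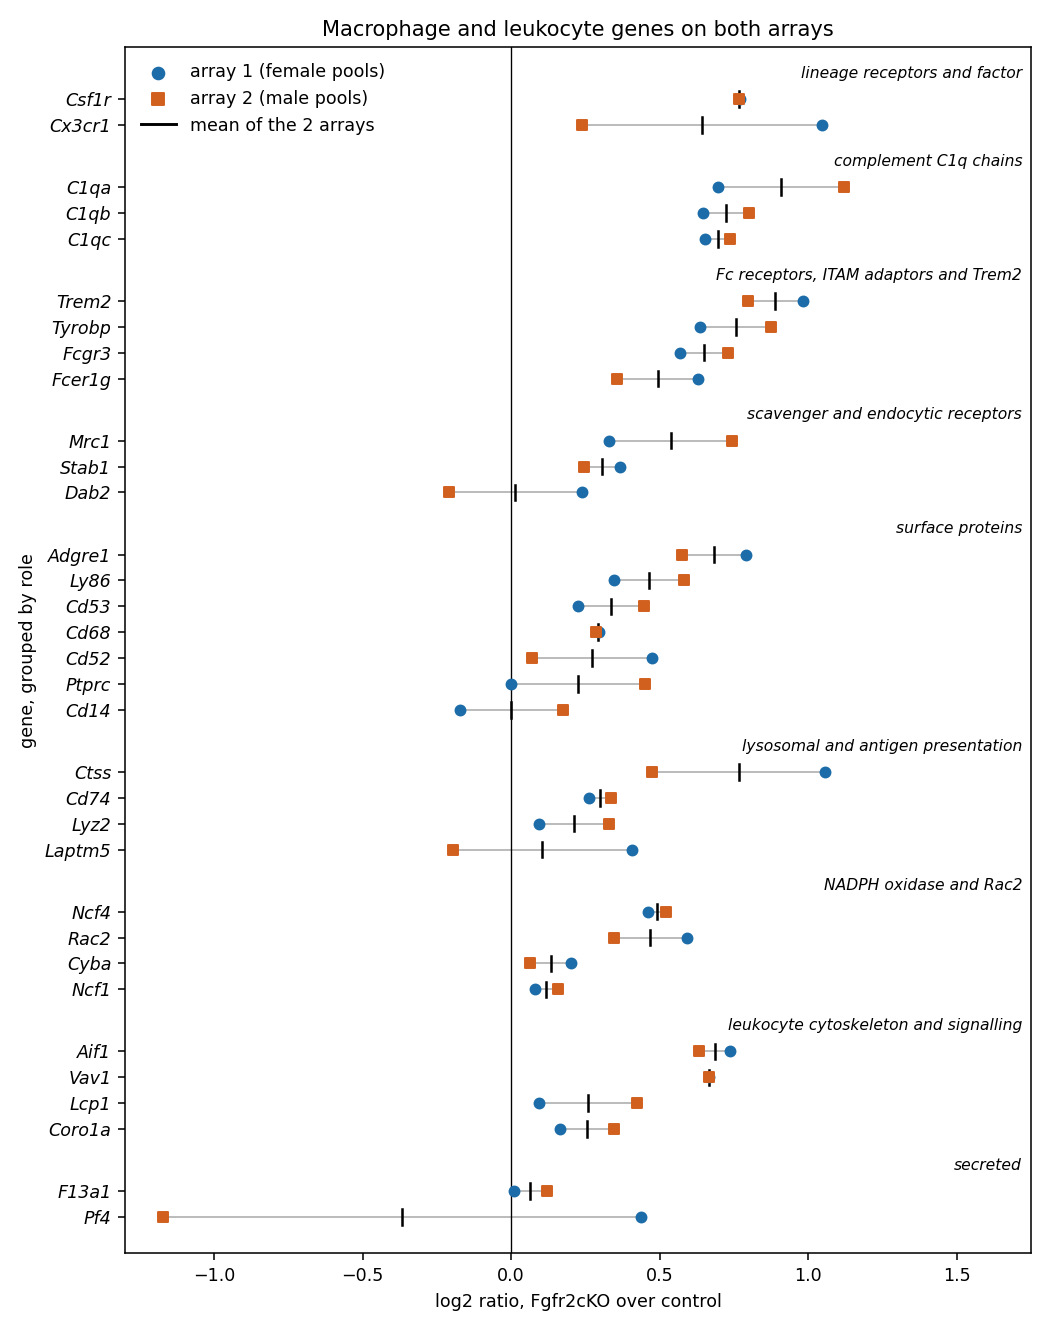
Log2 ratio of Fgfr2cKO over control (x axis) of each of the 33 measured genes (y axis, grouped by role), with circles for array 1, squares for array 2 and a bar at their mean. The C1q chains, the receptor Csf1r and the Trem2 and Tyrobp pair lie to the right of 0.6 on both arrays, and Pf4 spans from -1.17 on array 2 to 0.44 on array 1.

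Of the 33 genes, 8 were at least 1.5-fold higher on both arrays, where 0.297% of all genes were, and these were C1qa, Trem2, Csf1r, Tyrobp, C1qb, C1qc, Aif1 and Vav1. After median centring in place of loess the count was 3, with C1qa, Trem2 and Csf1r left. With the mean of a gene's probes it was 6, without Csf1r and Vav1, and with the deposited processed signals it was 11, with Adgre1, Cd53 and Fcgr3 added. The share of all genes past 1.5-fold was not counted under these alternatives.

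C1qa, C1qb and C1qc encode the chains of C1q, the recognition molecule of the classical complement pathway, which tissue macrophages make. The level of C1qa was 8.77 and 8.97 in the mutant channels of array 1 and array 2, against 8.08 and 7.85 in the control channels. C1qb stood at 9.41 and 9.38 in mutant and at 8.76 and 8.58 in control ureters. C1qc stood at 10.89 and 10.65 in mutant and at 10.23 and 9.91 in control ureters. For each chain both mutant levels lay above both control levels. Their ratios were 0.91 ± 0.30 for C1qa, 0.72 ± 0.11 for C1qb and 0.69 ± 0.061 for C1qc, or 1.88-fold, 1.65-fold and 1.62-fold. C1qa ranked 37 of 20909 genes by its mean ratio. The adjusted p in limma was 0.418, 0.552 and 0.573 for the 3 chains. The probes lie on chromosome 4 of mm9, from 136452409 to 136452468 for C1qa, from 136436578 to 136436637 for C1qb and from 136445766 to 136445825 for C1qc, so the 3 genes are neighbours.

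Trem2 is a lipid-sensing receptor of phagocytes that signals through the adaptor Tyrobp. Its level was 10.59 and 10.36 in mutant ureters, against 9.61 and 9.56 in control ureters. Tyrobp stood at 10.88 and 11.06 in mutant and at 10.25 and 10.18 in control ureters. Both groups were separate for both genes, with ratios of 0.89 ± 0.13 for Trem2 and 0.76 ± 0.17 for Tyrobp (adjusted p in limma 0.366 and 0.548). The SD over the spots of the Trem2 probe was 0.19 on array 1 and 0.25 on array 2, wider than for most members, whose medians were 0.11 on each array. The Trem2 probe lies on chromosome 17 from 48491537 to 48491596.

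Fc receptors take up antibody-coated particles, and Fcer1g is the adaptor that carries their signal. Fcgr3, a low-affinity receptor for IgG, stood at 7.80 and 7.85 in mutant and at 7.23 and 7.12 in control ureters. Fcer1g stood at 10.89 and 10.82 in mutant and at 10.26 and 10.46 in control ureters. The groups did not overlap for either gene, and the ratios were 0.65 ± 0.11 and 0.49 ± 0.19. Fcgr1, the high-affinity IgG receptor, did not pass the filter. It was well above background in the mutant channel of array 2 alone, at 6.99 against 6.42 in the control channel, and at 6.39 and 6.43 on array 1.

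Csf1r, the receptor for the growth factors Csf1 and Il34 on which macrophages depend, was higher by nearly the same ratio on both arrays. Its level was 12.53 and 12.43 in mutant ureters, against 11.76 and 11.66 in control ureters. The ratio was 0.77 ± 0.0019 (1.70-fold, adjusted p in limma 0.475). The other tested Csf1r probes were higher on both arrays as well, by less, with 0.36 ± 0.03 and 0.11 ± 0.06. Cx3cr1, the receptor for the chemokine fractalkine, stood at 11.98 and 11.04 in mutant and at 10.93 and 10.80 in control ureters. Its ratio was 1.05 on array 1 and 0.24 on array 2. A probe that overlaps this one gave 1.05 and 0.28, and a probe elsewhere in the gene gave 0.45 and 0.59. Spi1, the factor of the lineage, was not well above background in any channel (6.20 and 6.13 in mutant, 6.22 and 6.17 in control ureters), so no difference was measurable for it.

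**Figure D2:**
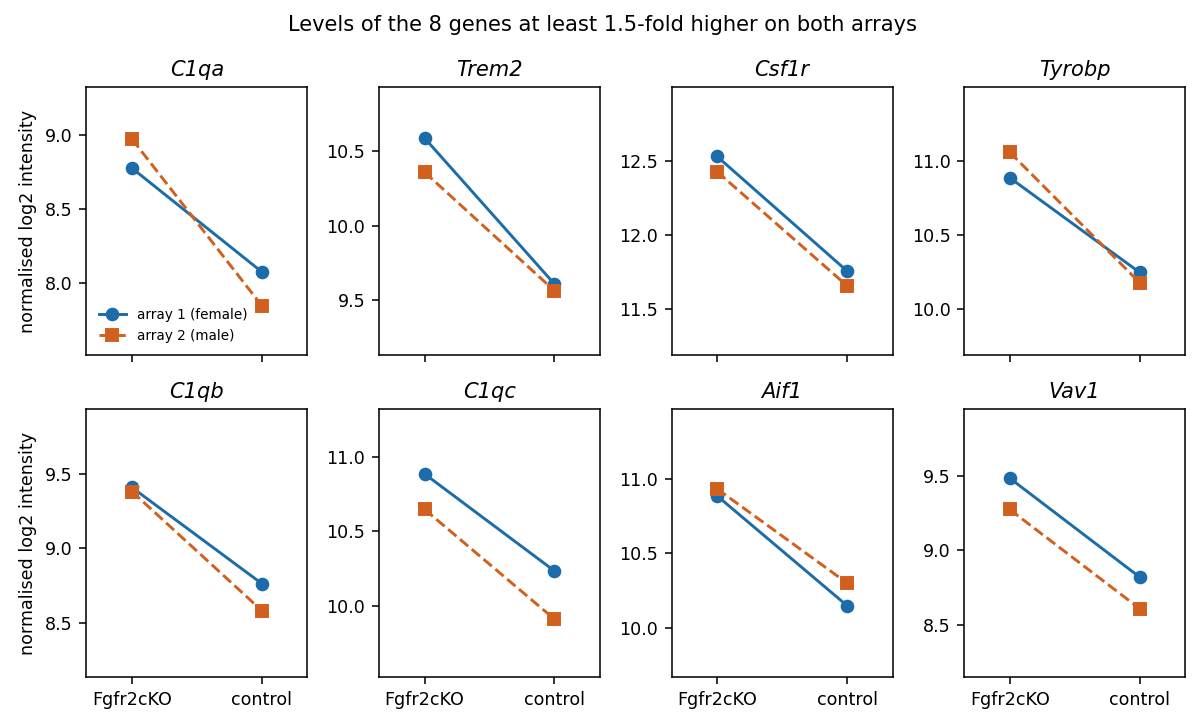
Normalised log2 intensity (y axis) in the Fgfr2cKO and the control channel (x axis) of the 8 genes that were at least 1.5-fold higher on both arrays, with 1 line per array; each panel spans the same number of log2 units. In every panel both Fgfr2cKO points lie above both control points.

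The factor PU.1 binds the PU box, with the letters GAGGAA, in promoters of many myeloid genes, so the promoter windows of the genes were searched for it. RefSeq windows on GRCm38.p6, from 250 bases before to 50 after the start of transcription, were listed for 27 of the 37 genes, with 33 windows in all. The letters GAGGAA occurred on either strand in 21 of the 33 windows, which is 63.6%, where 28.3% of all 32851 windows held them. Some genes had more than 1 window, and these can overlap. Counted by gene, 18 of the 27 held a match in at least 1 window, where 8446 of all 27025 genes with a window did. Of the 8 genes at least 1.5-fold higher on both arrays, 5 had a window. Each of these windows held 1 match, and so did that of Pf4, whose ratios had opposite signs. A match describes the letters and is not a site of binding. No window was listed for C1qa, Csf1r and Tyrobp, so these are not shown. The windows of the 6 genes are shown 5′ to 3′ on the strand of the gene. The match is in capitals (TTCCTC where it lies on the other strand).
C1qb, chr4:136886151-136886450 (minus strand): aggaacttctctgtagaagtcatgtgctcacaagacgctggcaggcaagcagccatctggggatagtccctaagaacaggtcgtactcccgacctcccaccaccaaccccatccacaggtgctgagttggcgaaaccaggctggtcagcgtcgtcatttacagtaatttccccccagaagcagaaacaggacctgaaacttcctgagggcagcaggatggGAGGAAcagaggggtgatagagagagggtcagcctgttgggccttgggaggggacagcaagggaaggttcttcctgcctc
C1qc, chr4:136892865-136893164 (minus strand): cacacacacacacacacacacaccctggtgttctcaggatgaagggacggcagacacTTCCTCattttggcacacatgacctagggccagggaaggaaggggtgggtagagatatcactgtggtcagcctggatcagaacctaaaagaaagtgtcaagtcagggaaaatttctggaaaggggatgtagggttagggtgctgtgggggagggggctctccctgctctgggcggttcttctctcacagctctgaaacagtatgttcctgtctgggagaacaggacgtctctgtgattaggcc
Trem2, chr17:48346151-48346450 (plus strand): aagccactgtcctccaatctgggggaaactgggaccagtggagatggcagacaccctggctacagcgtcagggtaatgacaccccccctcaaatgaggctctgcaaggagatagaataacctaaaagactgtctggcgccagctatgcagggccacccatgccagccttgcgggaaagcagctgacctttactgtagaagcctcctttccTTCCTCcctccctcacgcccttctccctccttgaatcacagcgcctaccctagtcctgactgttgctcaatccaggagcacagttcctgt
Aif1, chr17:35176003-35176302 (minus strand): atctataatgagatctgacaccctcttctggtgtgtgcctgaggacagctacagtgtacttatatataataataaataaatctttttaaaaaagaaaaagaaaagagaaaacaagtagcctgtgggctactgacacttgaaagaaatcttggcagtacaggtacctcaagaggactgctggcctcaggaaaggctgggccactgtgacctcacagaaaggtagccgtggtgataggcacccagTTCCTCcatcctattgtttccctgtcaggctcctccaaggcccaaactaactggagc
Vav1, chr17:57278850-57279149 (plus strand): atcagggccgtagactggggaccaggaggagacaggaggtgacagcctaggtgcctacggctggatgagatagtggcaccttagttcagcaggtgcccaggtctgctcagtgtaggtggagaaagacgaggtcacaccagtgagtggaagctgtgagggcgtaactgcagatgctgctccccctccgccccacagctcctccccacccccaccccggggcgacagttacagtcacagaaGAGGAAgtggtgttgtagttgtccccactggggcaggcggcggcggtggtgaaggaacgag
Pf4, chr5:90772185-90772484 (plus strand): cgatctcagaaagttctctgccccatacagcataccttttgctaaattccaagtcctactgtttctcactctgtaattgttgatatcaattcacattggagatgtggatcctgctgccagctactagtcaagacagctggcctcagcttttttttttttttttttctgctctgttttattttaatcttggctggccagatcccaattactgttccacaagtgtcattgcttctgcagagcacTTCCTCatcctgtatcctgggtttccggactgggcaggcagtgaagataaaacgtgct
Counted from the start of transcription, the match begins at -30 in C1qb, -193 in C1qc, -40 in Trem2, -7 in Aif1, -11 in Vav1 and -8 in Pf4.

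Genes of the leukocyte cytoskeleton and of signalling within leukocytes were all higher on both arrays, 4 of 4. Aif1, an actin-binding protein also known as Iba1 that marks macrophages and microglia, stood at 10.88 and 10.93 in mutant and at 10.15 and 10.30 in control ureters. Vav1, a signalling protein of blood cells, stood at 9.48 and 9.27 in mutant and at 8.82 and 8.61 in control ureters. The ratios were 0.68 ± 0.074 and 0.67 ± 0.0010 (adjusted p in limma 0.599 and 0.616), and the second Vav1 probe gave 0.38 ± 0.05. That probe was dim, at 6.90 and 6.75 in mutant and at 6.48 and 6.40 in control ureters. None of its spots was well above background in the control channel of array 2. Lcp1, an actin-bundling protein, had ratios of 0.09 and 0.42, with 0.09 and -0.05 at its dimmer probe, and it was not higher on both arrays after median centring. Coro1a, a coronin of leukocytes, had 0.17 and 0.35.

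Among surface proteins, 5 of 7 were higher on both arrays. Adgre1 (older name Emr1), which encodes a surface antigen used to identify mouse macrophages, stood at 9.65 and 9.20 in mutant and at 8.86 and 8.63 in control ureters. Its ratios were 0.79 and 0.58, and the dimmer probe gave 0.24 and 0.87. Ly86, a partner of a Toll-like receptor homologue, had 0.35 and 0.58, and the tetraspanin Cd53 had 0.23 and 0.45. Cd68, a protein of macrophage lysosomes, had 0.30 and 0.29, so that its SD over the arrays was only 0.0073, but its unadjusted p was 0.0866. Cd52 had 0.47 and 0.07.

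Ptprc, which encodes CD45 of leukocytes, and Cd14, a co-receptor for bacterial lipopolysaccharide, did not go the same way on both arrays. Ptprc stood at 7.09 and 7.56 in mutant and at 7.09 and 7.11 in control ureters, with a ratio of -0.00087 on array 1 and of 0.45 on array 2, and it was higher on both arrays after median centring and in the authors' deposited table, where its mean was 0.45, against 0.22 here. Cd14 stood at 8.11 and 8.38 in mutant and at 8.28 and 8.21 in control ureters. The groups of both genes touched or overlapped.

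Of the scavenger and endocytic receptors, 2 of 3 measured were higher on both arrays. Mrc1, the mannose receptor of tissue macrophages, which sinusoidal and lymphatic endothelium also makes, stood at 10.32 and 10.44 in mutant and at 9.99 and 9.70 in control ureters, with a ratio of 0.54 ± 0.29. Stab1, shared by macrophages and sinusoidal endothelium, had 0.37 and 0.24. Dab2, an endocytic adaptor that epithelia also express, stood at 12.96 and 12.64 in mutant and at 12.72 and 12.85 in control ureters, so its groups overlapped and its ratio was 0.24 on array 1 and -0.21 on array 2. Cd163, the haemoglobin scavenger receptor of mature macrophages, was not well above background in any channel. Endothelial genes, 13 of which were measured, had a median of 0.05, with 7 higher and 1 lower on both arrays.

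Of the lysosomal genes and the invariant chain, 3 of 4 were higher on both arrays. Ctss, cathepsin S, a protease that trims the invariant chain, stood at 11.41 and 10.80 in mutant and at 10.36 and 10.33 in control ureters, a ratio of 1.06 on array 1 and 0.47 on array 2. Cd74, the invariant chain of MHC class II, stood at 8.25 and 8.86 in mutant and at 7.99 and 8.52 in control ureters. Each mutant level of Cd74 exceeded the control level of its own array, by 0.26 and 0.34, while the levels of the groups overlapped across arrays. Lyz2, lysozyme of macrophages and granulocytes, had 0.09 and 0.33, and its probe may also read the near-identical Lyz1. Laptm5, a lysosomal membrane protein of blood cells, stood at 8.78 and 8.07 in mutant and at 8.38 and 8.26 in control ureters. Both Laptm5 probes turned between the arrays, with 0.41 and -0.20 at the brighter one and 0.35 and -0.18 at the other.

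The phagocyte NADPH oxidase makes superoxide. Ncf4, a cytosolic subunit, stood at 9.18 and 9.13 in mutant and at 8.72 and 8.61 in control ureters, and Rac2, the GTPase that activates the oxidase in blood cells, had ratios of 0.59 and 0.35. Ncf1, another cytosolic subunit, had 0.08 and 0.16. Cyba, the small membrane subunit, which many tissues express, had 0.20 and 0.06 and was below 0 in the mean after median centring. Cybb, the catalytic subunit, was well above background in the mutant channel of array 2 alone, at 6.50 against 6.40 in the control channel, and did not pass the filter.

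Pf4 differed most between the arrays. Pf4 is a chemokine of platelets and megakaryocytes that some macrophages also express. It stood at 11.69 and 11.19 in mutant and at 11.25 and 12.36 in control ureters, so that the mutant level was higher on the female array and lower on the male array, with ratios of 0.44 and -1.17. The SD over the spots of this probe was 0.051 and 0.036. Of the megakaryocyte and platelet genes, Gp9, a subunit of the platelet receptor for von Willebrand factor, had 0.47 and -1.75, Treml1 had 0.84 and -1.64, and Ppbp, a platelet chemokine, had 0.26 and -1.18. These genes thus stood on the same sides as Pf4 on each array, and Gp1bb, at 0.11 and 0.21, did not. F13a1, a clotting factor subunit of macrophages and platelets, stood at 8.84 and 8.97 in mutant and at 8.84 and 8.85 in control ureters, and its mean was below 0 after median centring.

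**Figure D3:**
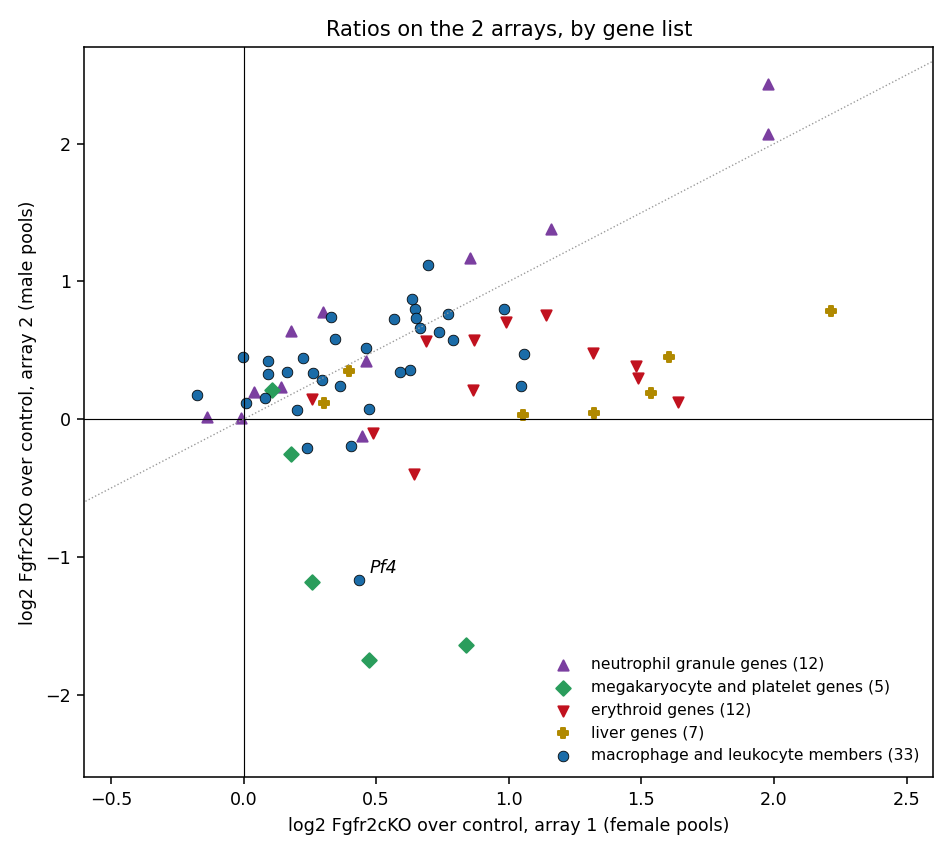
Log2 ratio of Fgfr2cKO over control on array 1 (x axis) against that on array 2 (y axis) for the 33 macrophage and leukocyte genes and for lists of other cell types, with the dotted line marking equal ratios. Most of the 33 genes gather near the line, erythroid and liver genes lie below it, and Pf4 lies at 0.44 and -1.17 beside platelet genes.

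Where several probes of a gene were measured, they mostly had the same direction and different sizes. Of 8 such genes, Adgre1, Cd68, Csf1r, Cx3cr1, Cyba and Vav1 had every tested probe higher on both arrays. The dimmer Vav1 probe was not well above background in the control channel of array 2. Laptm5 had no probe higher on both arrays, and Lcp1 had 1 of 2. The widest range of means was that of Csf1r, from 0.11 to 0.77. That of Cx3cr1 was narrower, from 0.52 to 0.66.

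**Figure D4:**
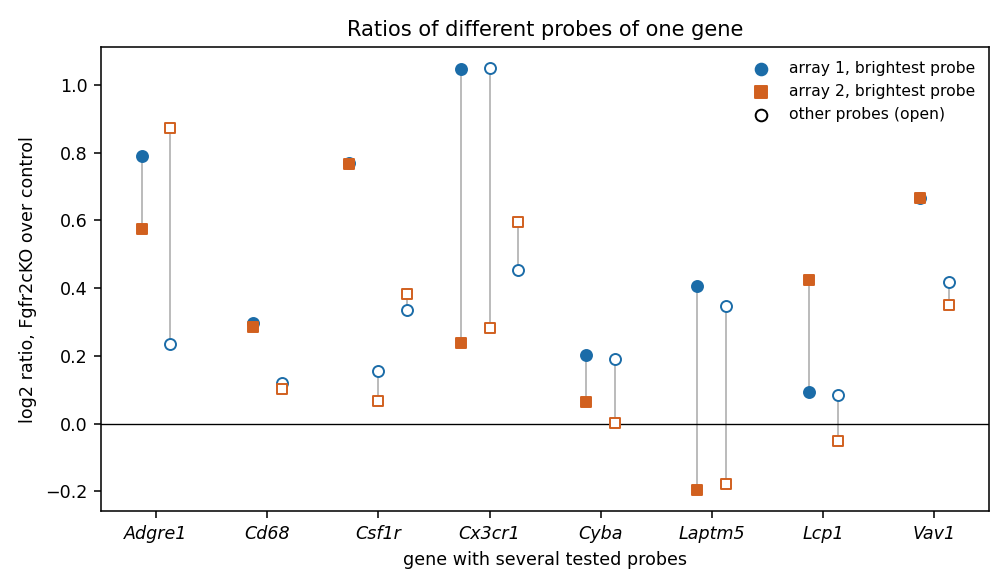
Log2 ratio of Fgfr2cKO over control (y axis) of each tested probe of the 8 genes with several (x axis), filled for the brightest probe and open for the others, with circles for array 1 and squares for array 2. The Csf1r probes run from 0.11 to 0.77 in the mean, and the Laptm5 probes lie on opposite sides of 0 on the 2 arrays.

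Other genes of macrophages and leukocytes, none of them among the 37, were mostly higher as well, which was not compared with the 37 by a test. This list too was chosen with earlier results of these data known. Of 44 measured, 30 stood higher and 3 lower in both comparisons (median ratio 0.24), and 0 passed the adjusted p of 0.05 in limma, with 7 at an unadjusted p under 0.05. Ms4a7, a membrane protein of macrophages, had 1.04 and 1.25 (adjusted p in limma 0.140, and no lower than 0.0932 in any of the 10 ways of processing). Mpeg1, the pore-forming perforin-2 of macrophages, had 0.61 and 0.94, Nckap1l, a regulator of actin in blood cells, had 0.77 and 0.32, and P2ry6, a nucleotide receptor of phagocytes, had 0.50 and 0.46.

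On both arrays 0 of 7 measured MHC class II genes were higher and 3 were lower (median ratio -0.03). H2-Ab1, a class II chain, had -0.17 and -0.23. Its levels were dim, at 6.72 and 6.54 in mutant and at 6.89 and 6.77 in control ureters. Over the 10 ways of processing the mean of H2-Ab1 ran from -0.57 to -0.14. H2-DMb1, a peptide-loading chain, had -0.11 and -0.40. Ciita, the activator of class II transcription, had -0.16 and 0.91. Other complement genes numbered 9, of which 5 stood higher and 1 lower on both arrays, among the higher ones C2, which acts after C1q in the classical pathway, with 0.67 and 0.49. C4b, also in that pathway, had -0.44 on array 1 and 1.07 on array 2.

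Ligands that sustain or attract macrophages had ratios near or below 0 in most cases. Csf1, a ligand of Csf1r, had -0.05 and -0.02, and Il34, the other ligand, had -0.11 and -0.04. Cx3cl1, the ligand of Cx3cr1, had 0.17 and -0.52. Of the 10 ligands and chemokines measured, 1 was higher on both arrays and 4 were lower, and the median ratio was -0.06. Ccl4, a chemokine for monocytes, had the lowest mean of them, with -0.30 and -0.37, and Tgfb1 had 0.07 and -0.48.

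Of the other cell types, neutrophil, erythroid and liver genes were mostly higher on both arrays. Neutrophil granule genes were higher on both arrays in 9 of 12 cases, and S100a9 and S100a8, calcium-binding proteins of neutrophils, passed the limma test with 2.21 ± 0.32 and 2.02 ± 0.064 (adjusted p 0.0143 for both), which held in 7 of the 10 ways of processing, while the granule genes Camp and Ltf had 1.27 ± 0.16 and 1.01 ± 0.22. Erythroid genes had medians of 0.93 on array 1 and 0.34 on array 2, and 10 of 12 were higher on both arrays. Liver genes had medians of 1.32 and 0.19, and 7 of 7 were higher on both arrays, as Afp, a fetal plasma protein, with 2.22 and 0.78. The medians of the 33 macrophage and leukocyte genes, 0.44 and 0.42, lay close to each other. Those of the other macrophage and leukocyte genes were 0.14 on array 1 and 0.27 on array 2, and those of neutrophil granule genes 0.37 and 0.53. Single genes of the 33 did not vary much less between the arrays than other genes, with a median SD of 0.155 against 0.159 over all genes. Ureteric epithelium and mesenchyme genes had medians of -0.28 and -0.23, with 6 of 10 lower on both arrays in each list.

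**Figure D5:**
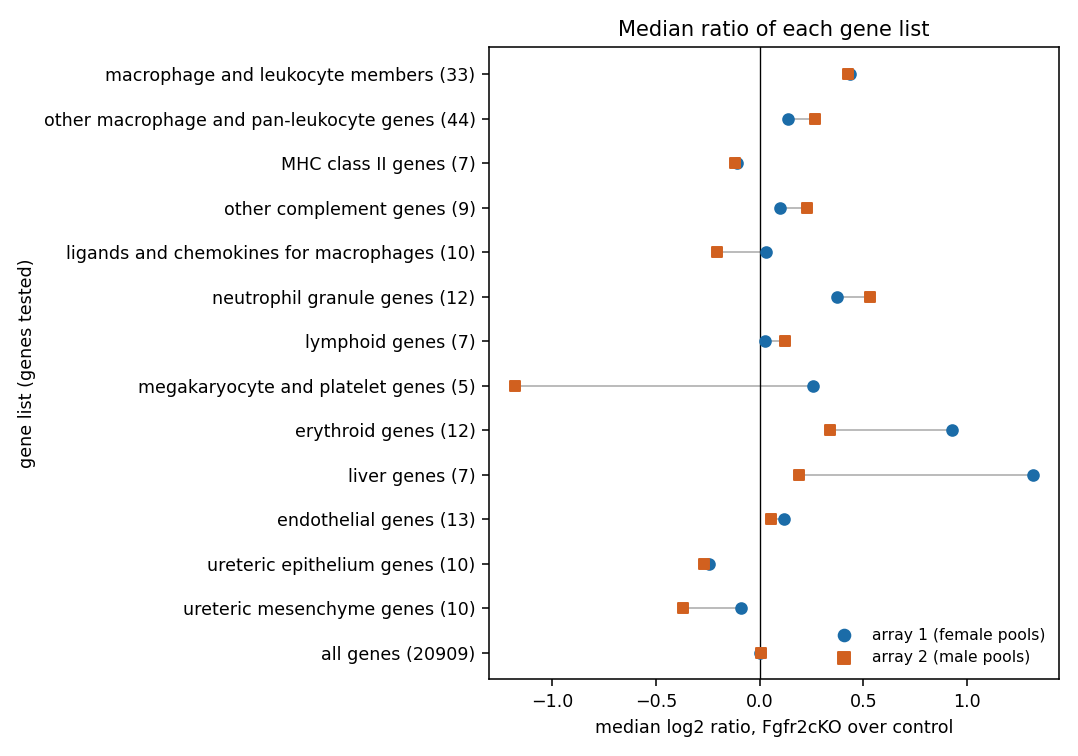
Median log2 ratio of Fgfr2cKO over control (x axis) of each gene list (y axis, with the number of genes measured), circles for array 1 and squares for array 2. The macrophage and leukocyte genes lie at 0.44 and 0.42, MHC class II genes and ligands lie near or below 0, and the liver, erythroid and platelet lists differ between the arrays.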

How the data were processed

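Each array held 174979 spots, with each of 39429 probes printed 4 times. Per the submitters' processing notes, spots were read with Agilent Feature Extraction 10.7.3.1, and probe positions are on mm9, per the file headers. The deposited mean and local background signals are raw intensity. The deposited processed signals are intensity that Feature Extraction had background-subtracted, detrended and LOWESS-corrected for dye, with surrogates for dim spots, as the file headers state. For every probe the authors' deposited value table gives a score for either array, which looks like a linear fold with a sign (column medians 1). Its direction was Fgfr2cKO over control when set against the processed signals (correlation across probes 0.973 and 0.991), and how it was scaled and centred stays unknown.

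Log2 ratios were computed from the deposited raw signals in limma 3.58.1 (R 4.3.3), by normexp with an offset of 50 and then loess within arrays with a span of 0.3, to which control spots contributed nothing. Outlier spots, 3.41% and 3.20% of all, were dropped, replicate spots were averaged and array 2 was turned to mutant over control. A probe counted as measured when over 0.5 of its spots were well above background on both arrays in the mutant or in the control channel (27474 probes). Symbols were updated through RefSeq accessions of GRCm38.p6, which matched 28328 probes. Levels are values after Aquantile normalization between arrays. Genes were tested against 0 with lmFit and eBayes (1 residual and 6.30 prior degrees of freedom), with Benjamini-Hochberg adjustment over all 20909 genes at 0.05. The arrays shared 1 slide. Dye, sex and pool coincide with the array. Alternatives were median centring, the processed signals, the authors' table, other filters on dim probes, the mean of a gene's probes, 4 separate channels, normexp with offset 10, outlier spots kept, and each array alone. All 37 genes were accounted for. Levels were given at least for those past 1.5-fold in 1 direction on each array and those with opposite signs, and of each other list the called genes and at most the 4 with the largest absolute mean ratio were named, with Csf1, Il34 and Cx3cl1. The genes and lists were chosen with earlier results of these data known.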

Additional observations from a re-analysis of the deposited data

Results flagged for a closer look

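In 5 of the 33 genes the ratio had opposite signs on the arrays labelled female and male, with 1 array for each sex, so the difference between them was not tested. Pf4 had 0.44 on the female and -1.17 on the male array. Laptm5 had 0.41 on the female and -0.20 on the male array, and Dab2 had 0.24 and -0.21 in the same order. Cd14 had -0.17 on the female and 0.17 on the male array. Ptprc had -0.00087 on the female and 0.45 on the male array, and was higher on both after median centring and in the authors' deposited table. Sex, dye and pool all differ between the 2 arrays and cannot be told apart. The platelet genes Gp9, Treml1 and Ppbp had the same signs as Pf4 on each array, and their part in its ratios was not tested.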

How the results depend on the processing

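The count of genes higher on both arrays ran from 26 to 29 over the other ways of processing, where the share of all genes ran from 15.5% to 23.0%. The 26 and the 15.5% were both after median centring. Under each of the 9 ways with a test, 0 of these genes passed limma. The count at least 1.5-fold higher on both arrays was 3 after median centring in place of loess, and the median ratio was 0.30 without the filter on dim probes, where 37 genes entered. With 1 array left out at a time, the counts were 30 to 31 higher, 10 to 13 at least 1.5-fold higher and 35 to 36 of the other leukocyte genes higher, and the median was 0.42 to 0.44. The 13 was array 1 alone. On each single array the median of all genes was near 0, where the normalisation puts it. The share of all genes past 1.5-fold was not counted there or under the other ways of processing. Directions turned in genes with ratios near 0 or opposite arrays. After median centring, Cd14 was at -0.039, Cyba at -0.036, Dab2 at -0.14 and F13a1 at -0.0052. Cd14 was also at -0.048 with the processed signals, at -0.047 in the authors' deposited table and at -0.0093 with offset 10. On array 1 alone and on array 2 alone, Dab2 was at 0.24 and -0.21, Laptm5 at 0.41 and -0.20, Cd14 at -0.17 and 0.17, Ptprc at -0.00087 and 0.45, and Pf4 at 0.44 and -1.17. The cause of these turns was not tested. Median centring put the median of all genes at -0.085. Over all genes limma called 6, against 0 after median centring, with 4 separate channels and with dim probes kept, 11 with the processed signals, with both groups above background and with outlier spots kept, 14 with offset 10, 8 in the authors' table and 4 with the mean of probes. The test on ratios within arrays is itself paired by array. The fit of the 4 channels separately, which ignores that pairing, also called 0 of these genes.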

Other observations

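Lymphoid, mast cell and monocyte genes were measured in part. Of 15 lymphoid genes 7 were measured, with 3 higher and 0 lower on both arrays and a median of 0.11, and Cd4, which macrophages can also express, had 0.06 and 0.75. Of 6 mast cell genes 3 were measured, and all 3 had opposite signs on the 2 arrays, as Tpsb2 with 0.27 and -0.61 and Hdc with 0.52 and -0.10. Of 6 monocyte genes 3 were measured, with a median of 0.02 and none higher on both arrays. Among erythroid genes, the globin genes Hbb-b2 and Hba-a2 had 1.14 and 0.76, and 1.48 and 0.38, and near-identical globin copies may share their probes.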
